A study of Mus musculus with 8 samples.

Results

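The expression of 10 genes of macrophages and of complement C1q was measured in pancreatic islets of mice with and without insulin receptor substrate 2 (Irs2): Aif1, C1qa, C1qb, C1qc, Cd68, Tyrobp, Ctss, Marco, Csf1r and Mrc1. They were taken by name from 18193 genes that had at least 1 probe set naming a single gene, and the names were chosen with results of these data known. All 10 had such a probe set, and where a gene had several the 1 with the highest mean over all arrays stood for it. Values are log2 expression, so a difference of 1 is a 2-fold difference.

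Islets were taken from male C57Bl/6 mice aged 13 weeks, which had drunk their assigned water for 21 days from 10 weeks of age. The 4 groups were Irs2-/- mice given sodium tungstate, Irs2-/- mice on distilled water, wild-type (WT) mice given sodium tungstate and WT mice on distilled water, with 2 arrays in each. Irs2 is an adaptor that links the activated insulin receptor to kinases inside the cell, and tungstate is a salt studied as a glucose-lowering agent. Its strength in the drinking water is not settled, since the design text has 2 mg/ml and the labels of the samples have 2 mg/dl. The labels name a knockout without a Cre driver. They do not tell how many mice went into each sample, so the p-values rest on a spread between arrays that may be partly technical.

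Macrophages live in healthy islets, where they lie among the endocrine cells and along the capillaries, and more of them enter islets in diabetes. They depend on the receptor Csf1r for survival, take up debris and microbes through scavenger and lectin receptors, and break down what they take up in lysosomes. Tissue macrophages are also a main source of C1q, the complex of A, B and C chains that recognises immune complexes and dying cells and starts the classical complement pathway.

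Irs2 itself, the check of the labels, read 4.54 to 4.89 on the 4 Irs2-/- arrays and 7.61 to 7.91 on the 4 WT arrays. The mean of 10 endocrine markers lay between 12.29 and 13.23 on all 8 arrays, so the labelled tissue was present throughout. The 18S ribosomal control probe sets read 11.05 and 10.63 in Irs2-/- islets on water, the lowest 2 of the 8 arrays, against 11.12 to 12.70 on the other arrays. The difference between 3' and 5' probe sets of beta-actin was 0.73 and 0.94 in that group and 0.96 to 1.12 on the other arrays, and that of Gapdh 0.42 and 0.37 against 0.42 to 0.57. Their part in the results below was not tested. In whole islets, fewer macrophages and less RNA of a gene per macrophage cannot be told apart.

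All 10 genes were highest in Irs2-/- islets on plain water. For each of them both arrays of that group lay above all 6 other arrays, which was so for 15.1% of the 13369 genes tested. Of the 10, 9 passed the filter on low values (a mean of at least log2 5.27), and the exception was Mrc1. Cd68 passed it only through the untreated Irs2-/- arrays, since its mean over the other 6 was 5.26. In the other 3 groups the levels of each gene were closer to each other.

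**Figure D1:**
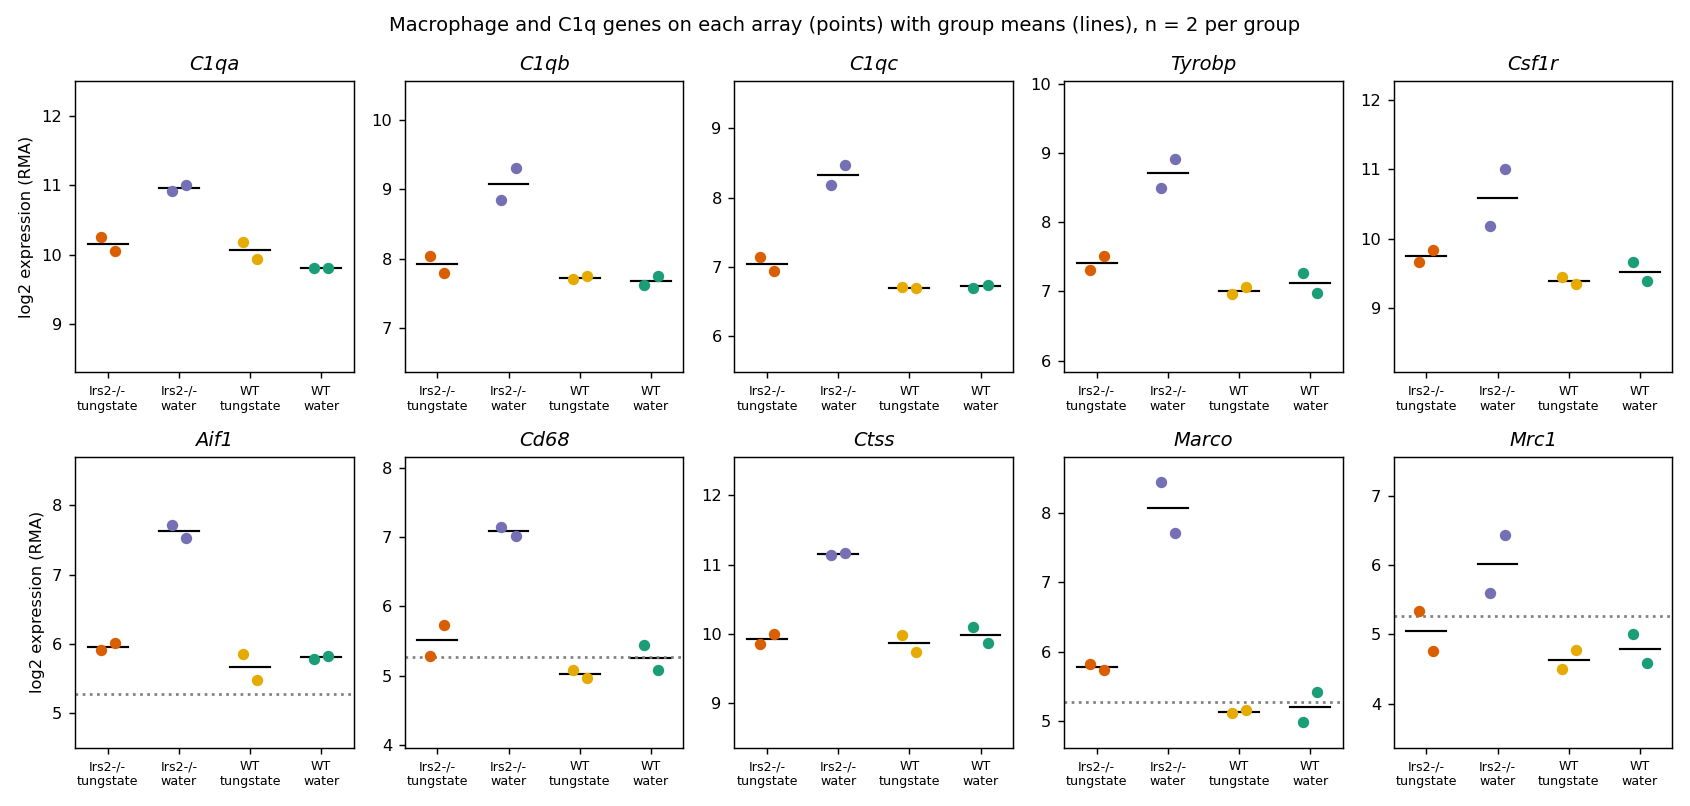
Log2 expression of each gene on every array, 2 points per group, with the group mean as a line and the level of the filter on low values as a dotted line. Every panel spans the same number of log2 units, and in all 10 panels both Irs2-/- arrays on water lie above the other 6 arrays.

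The 3 C1q genes had much the same order of groups. C1qa, which encodes the A chain, read 10.25 and 10.05 in Irs2-/- islets on tungstate, 10.91 and 11.01 in Irs2-/- islets on water, 10.19 and 9.94 in WT islets on tungstate, and 9.80 on both arrays of WT islets on water. C1qb, for the B chain, read 8.04 and 7.80 in Irs2-/- islets on tungstate, 8.85 and 9.31 in Irs2-/- islets on water, 7.71 and 7.75 in WT islets on tungstate, and 7.62 and 7.75 in WT islets on water. C1qc, for the C chain, read 7.14 and 6.95 in Irs2-/- islets on tungstate, 8.18 and 8.47 in Irs2-/- islets on water, 6.71 and 6.69 in WT islets on tungstate, and 6.70 and 6.74 in WT islets on water. For each chain the untreated Irs2-/- arrays stood above all the others. The treated Irs2-/- arrays lay above WT islets on water for all 3 chains, and above WT islets on tungstate for C1qb and C1qc. For C1qb the margin was small against both WT groups (7.80 against 7.75 in each). The share of all tested genes with these orders was not counted, so they describe these arrays only. Across the 8 arrays C1qb and C1qc had the highest correlation of all 45 pairs of members (Pearson r = 0.99), a description in which all pairs share the same arrays. The genes lie next to each other on chromosome 4 in the order C1qb, C1qc, C1qa, with 0 protein-coding genes between them in the RefSeq annotation.

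The start regions of C1qb and C1qc are shown because their levels were the most closely correlated, with those of Ctss and Mrc1 because they hold the same short word. Each is the window of 250 bases before to 50 bases after the gene's start in RefSeq, build GRCm38.p6, at chr4:136886151-136886450 (minus strand), chr4:136892865-136893164 (minus strand), chr3:95526536-95526835 (plus strand) and chr2:14229164-14229463 (plus strand). Capitals mark the letters ACTTCCT, the reverse complement of AGGAAGT, a core of sites bound by the myeloid transcription factor PU.1.
C1qb: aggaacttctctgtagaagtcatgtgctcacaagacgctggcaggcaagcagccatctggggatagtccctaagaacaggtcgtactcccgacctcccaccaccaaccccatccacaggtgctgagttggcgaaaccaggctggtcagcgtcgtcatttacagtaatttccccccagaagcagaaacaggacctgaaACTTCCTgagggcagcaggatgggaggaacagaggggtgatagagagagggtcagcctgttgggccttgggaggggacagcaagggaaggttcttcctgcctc
C1qc: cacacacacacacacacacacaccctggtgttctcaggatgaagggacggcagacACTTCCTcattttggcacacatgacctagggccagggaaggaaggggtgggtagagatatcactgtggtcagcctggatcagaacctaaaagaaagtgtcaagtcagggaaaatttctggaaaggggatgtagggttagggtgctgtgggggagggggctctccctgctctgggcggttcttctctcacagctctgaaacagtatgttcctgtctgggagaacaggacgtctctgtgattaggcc
Ctss: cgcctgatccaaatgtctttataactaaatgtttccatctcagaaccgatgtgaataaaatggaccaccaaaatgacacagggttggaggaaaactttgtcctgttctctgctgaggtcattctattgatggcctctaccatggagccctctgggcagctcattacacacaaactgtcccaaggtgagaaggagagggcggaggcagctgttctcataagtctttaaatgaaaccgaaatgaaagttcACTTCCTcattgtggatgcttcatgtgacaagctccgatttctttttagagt
Mrc1: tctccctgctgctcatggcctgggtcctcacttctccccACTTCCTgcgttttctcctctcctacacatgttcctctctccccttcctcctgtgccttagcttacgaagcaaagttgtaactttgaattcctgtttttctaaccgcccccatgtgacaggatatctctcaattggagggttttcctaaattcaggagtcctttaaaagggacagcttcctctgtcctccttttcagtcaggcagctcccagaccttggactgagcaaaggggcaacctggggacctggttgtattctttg
The word was searched on both strands and was chosen after the sequences had been seen. It begins 53 bases before the start of C1qb, 195 before that of C1qc, 2 before that of Ctss and 211 before that of Mrc1. Of the 7 members with a window used here it stood in these 4 and not in those of Aif1, Cd68 and Marco. Windows of C1qa, Tyrobp and Csf1r were not used, so whether they hold the word was not tested. It stood in 9.35% of 32851 such windows of all genes. As the word was chosen from seen sequences and some members were left out, the 2 shares are not a test of enrichment. A match describes the letters and is not a measured binding site.

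Csf1r, the receptor for the growth factors CSF1 and IL-34, read 9.66 and 9.83 in Irs2-/- islets on tungstate, 10.18 and 11.01 in Irs2-/- islets on water, 9.45 and 9.34 in WT islets on tungstate, and 9.66 and 9.38 in WT islets on water. Tyrobp encodes DAP12, a membrane adaptor that carries the signals of TREM2 and related receptors. It read 7.31 and 7.51 in Irs2-/- islets on tungstate, 8.50 and 8.91 in Irs2-/- islets on water, 6.96 and 7.06 in WT islets on tungstate, and 7.26 and 6.98 in WT islets on water. The untreated Irs2-/- arrays of Csf1r differed by 0.83 from each other, the widest gap within a group of any member, but neither overlapped with another group. Aif1 encodes IBA1, a calcium-binding protein of the macrophage cytoskeleton and the usual stain for tissue macrophages. Its levels were 5.91 and 6.01 in Irs2-/- islets on tungstate, 7.72 and 7.53 in Irs2-/- islets on water, 5.85 and 5.48 in WT islets on tungstate, and 5.79 and 5.83 in WT islets on water.

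Among the receptors for uptake, Marco, a scavenger receptor for bacteria and particles, had the widest range. It read 5.82 and 5.73 in Irs2-/- islets on tungstate, 8.44 and 7.71 in Irs2-/- islets on water, 5.11 and 5.15 in WT islets on tungstate, and 4.98 and 5.41 in WT islets on water. Its WT means, 5.13 and 5.20, lay under the filter level of 5.27, so a fold against WT islets is not an exact measure of size. Mrc1, the mannose receptor CD206 of alternatively activated and resident macrophages, read 5.34 and 4.76 in Irs2-/- islets on tungstate, 5.60 and 6.43 in Irs2-/- islets on water, 4.50 and 4.77 in WT islets on tungstate, and 5.00 and 4.59 in WT islets on water. It was at or under the filter level outside the untreated Irs2-/- group except for 1 treated Irs2-/- array.

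Of the lysosomal genes, Cd68, a membrane glycoprotein of late endosomes and lysosomes, read 5.29 and 5.72 in Irs2-/- islets on tungstate, 7.15 and 7.02 in Irs2-/- islets on water, 5.07 and 4.97 in WT islets on tungstate, and 5.44 and 5.08 in WT islets on water. Ctss encodes cathepsin S, the protease that trims the invariant chain from MHC class II molecules. It read 9.85 and 10.00 in Irs2-/- islets on tungstate, 11.13 and 11.17 in Irs2-/- islets on water, 9.98 and 9.75 in WT islets on tungstate, and 10.10 and 9.87 in WT islets on water. The WT means of Cd68, 5.02 on tungstate and 5.26 on water, lay under the filter level, so folds of Cd68 against WT islets are not exact measures of size either. For Ctss the treated Irs2-/- arrays overlapped with both WT groups. For Cd68, Csf1r and Mrc1 they overlapped with WT islets on water, and for C1qa and Mrc1 with WT islets on tungstate. Such overlaps were not counted over all tested genes, so they too describe these arrays only.

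The comparison of Irs2-/- with WT islets on plain water asked how loss of Irs2 changed these genes. All 9 tested members rose (limma adjusted p under 0.05), against 8.27% of all tested genes that rose and 8.52% that fell. Given how the members were chosen, these shares are set side by side as a description. Marco differed most, at 7.36-fold (log2 difference 2.88 ± 0.24, standard error, limma adjusted p = 0.00103), the 36th largest rise of the 13369 tested genes. Aif1 was 3.53-fold higher (1.82 ± 0.15, limma adjusted p = 0.00103). Cd68, whose WT level lay under the filter, differed by 1.82 ± 0.18 (limma adjusted p = 0.00181), with the limit that it was tested only through its high group. C1qc rose by 1.61 ± 0.13, C1qb by 1.40 ± 0.17 and C1qa by 1.16 ± 0.13 (limma adjusted p = 0.00103, 0.00322 and 0.00269). Tyrobp rose by 1.58 ± 0.17, Ctss by 1.16 ± 0.14 and Csf1r by 1.07 ± 0.25 (limma adjusted p = 0.00257, 0.00294 and 0.0263). The median of the 9 was 1.58, against -0.011 for all tested genes. With no filter on low values Mrc1 rose too (1.22 ± 0.30, limma adjusted p = 0.0330). The call for Csf1r ended without untreated Irs2-/- replicate 2 (difference 0.65), without any single WT array (0.93 to 1.21), on the 4 arrays of the comparison alone (1.07) and with the acinar marker level as a covariate (1.08).

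Tungstate in Irs2-/- mice was compared with plain water in the same genotype. Of the 9 tested members 7 fell, against 0.471% of all tested genes that fell: these 7 were among 63 genes lower in all. As the members were chosen with results of these data known, these shares too are only a description. Marco fell by 2.30 ± 0.24 (limma adjusted p = 0.0113), the 32nd largest fall of the 13369 genes. Aif1 fell by 1.66 ± 0.15 and Cd68 by 1.58 ± 0.18 (limma adjusted p = 0.00630 and 0.0173). Cd68 was tested only through the untreated Irs2-/- arrays, the group from which this fall is measured. Tyrobp fell by 1.30 ± 0.17, C1qc by 1.28 ± 0.13, Ctss by 1.22 ± 0.14 and C1qb by 1.16 ± 0.17 (limma adjusted p = 0.0288, 0.0113, 0.0157 and 0.0351). C1qa (-0.81 ± 0.13, adjusted p = 0.0544) and Csf1r (-0.85 ± 0.25, adjusted p = 0.208) did not pass limma's test. For all 10 members both treated arrays lay below both untreated arrays of this genotype, an order that 22.9% of all tested genes had. The median of the 9 was -1.28, against -0.011 for all tested genes. This comparison and the previous one share the untreated Irs2-/- arrays, so their values are not independent of each other.

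The calls under tungstate rest on the spread pooled over all 8 arrays. Fitted on the 4 Irs2-/- arrays alone, the same differences left 1 member past the threshold, and 3 passed without either WT array on tungstate, without treated Irs2-/- replicate 2, or without replicate 1 of both untreated groups. The differences kept their sign: without 1 array at a time Marco lay between -2.67 and -1.94 and Aif1 between -1.76 and -1.57.

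**Figure D2:**
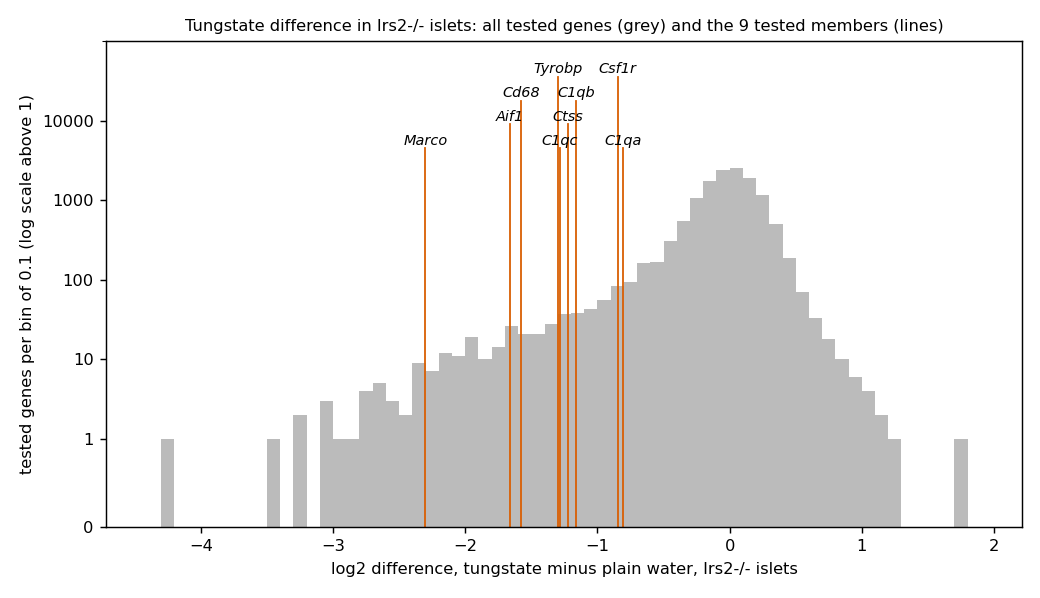
Number of tested genes per bin of the log2 difference between tungstate and plain water in Irs2-/- islets (grey bars, logarithmic count axis), with the 9 tested members as lines. The members lie between -2.30 and -0.81, in the lower tail of the 13369 genes.

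In WT islets tungstate left 0 members past limma's test, and 0.00% of all tested genes passed it. At an unadjusted p under 0.05 there were 0 members and 364 of the 13369 genes (2.72%). The differences of the 9 ran between -0.24 for Cd68 and 0.26 for C1qa, with a median of -0.11 (all tested genes -0.028). The lower ends of their 95% intervals ran between -0.70 for Csf1r and -0.04 for C1qa, and for each member the difference measured in Irs2-/- islets lay below that end. The difference in Irs2-/- islets has an error of its own, so the responses are compared by the interaction below.

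**Figure D3:**
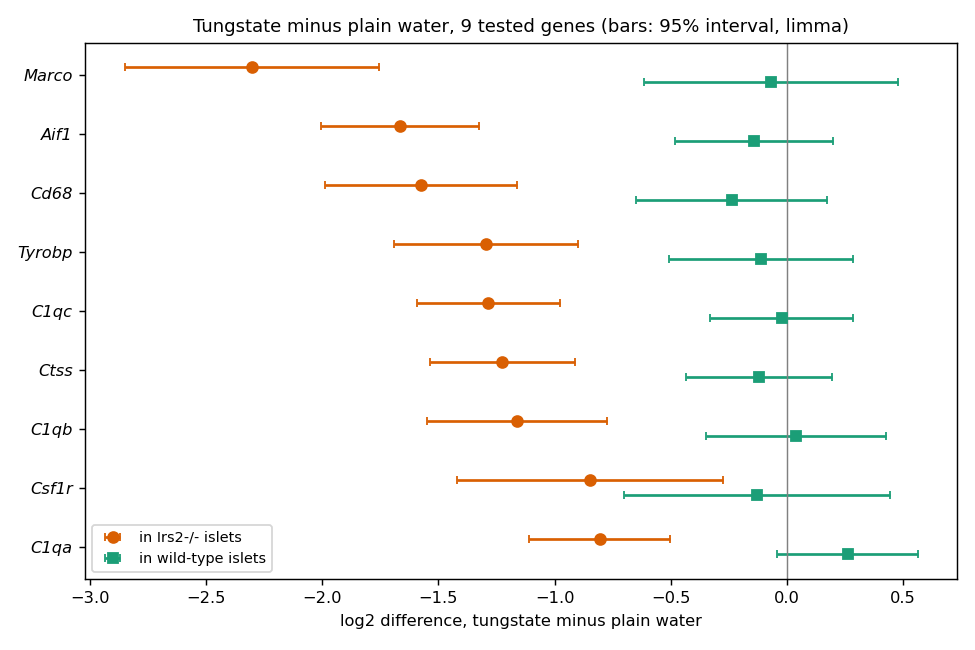
Log2 difference between tungstate and plain water for the 9 tested members, in Irs2-/- islets (circles) and in WT islets (squares), with 95% intervals from limma. All 9 lie below 0 in Irs2-/- islets, and all 9 intervals in WT islets include 0.

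Whether the response to tungstate differed between genotypes was tested as the interaction, which is also the genotype difference under tungstate minus that on water. All 9 interactions were negative, between -2.24 for Marco and -0.72 for Csf1r, and 0 passed limma's test after adjustment over all genes, where 0.0224% of genes passed. The smallest adjusted p was that of Aif1 (-1.52 ± 0.21, limma adjusted p = 0.0920), followed by C1qc (-1.26 ± 0.19) and Marco (-2.24 ± 0.33), both with an adjusted p of 0.125. At an unadjusted p under 0.05, 8 of the 9 members passed, all but Csf1r, against 862 of the 13369 genes (6.45%). Given how the members were chosen, and with Cd68 tested only through its high group, these counts are a description.

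Under tungstate the genotypes were compared again, on arrays that the comparison on water used only for the pooled spread. None of the 9 members passed limma's test, where 1.02% of all tested genes did (0.636% higher and 0.389% lower), and 4 members had an unadjusted p under 0.05, as 2147 of the 13369 genes did (16.1%). On the main probe sets all 9 differences were positive. The difference was 0.64 ± 0.24 for Marco (95% interval 0.10 to 1.19, limma adjusted p = 0.231) and 0.49 ± 0.18 for Cd68, both against WT levels under the filter, and 0.40 ± 0.17 for Tyrobp. It was 0.35 ± 0.13 for C1qc, 0.19 ± 0.17 for C1qb and 0.09 ± 0.13 for C1qa. The further probe sets of C1qb differed by more, 0.61 ± 0.19 and 0.45 ± 0.17 (limma adjusted p = 0.236 and 0.320 over all probe sets). Their interactions were -0.88 ± 0.27 and -0.49 ± 0.25, against -1.20 for the main one. Csf1r differed by 0.35 ± 0.25, Aif1 by 0.30 ± 0.15 and Ctss by 0.06 ± 0.14. The upper ends of the 95% intervals ran between 0.38 for Ctss and 1.19 for Marco, below the difference measured on water for each gene. The difference on water has an error of its own, which this leaves out. The interaction takes in both errors, and there 0 members passed limma's test after adjustment. Set against WT islets on water, treated Irs2-/- islets had differences between -0.06 for Ctss and 0.58 for Marco, and 0 members passed limma's test (0.352% of all tested genes did, and 3 members had an unadjusted p under 0.05, as 2489 of the 13369 genes did, 18.6%). A p that misses the threshold does not show equal levels.

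**Figure D4:**
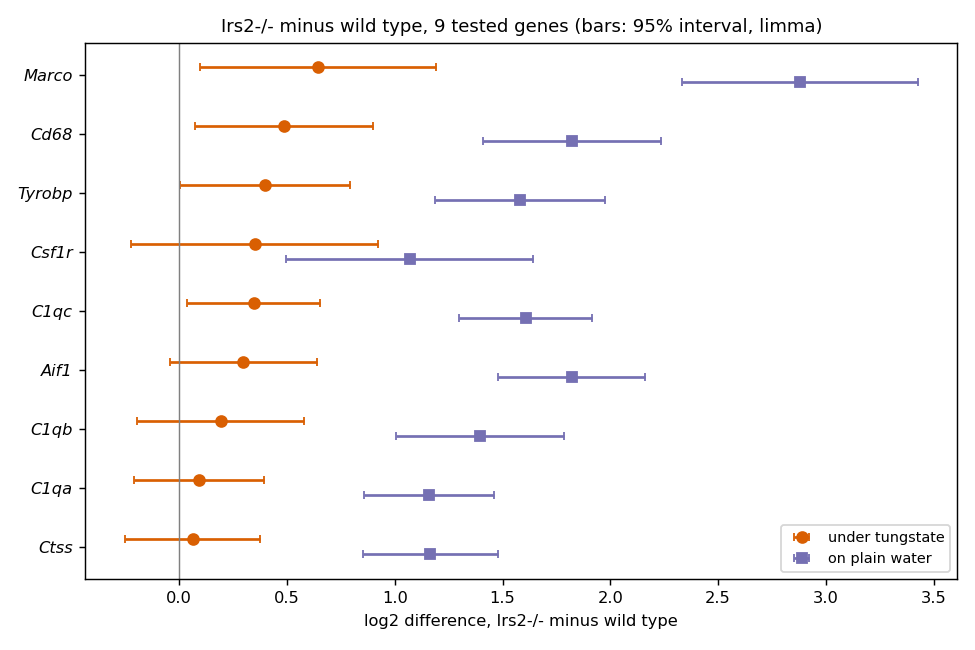
Log2 difference between Irs2-/- and WT islets for the 9 tested members, under tungstate (circles) and on plain water (squares), with 95% intervals from limma. Under tungstate the differences run between 0.06 and 0.64, and on water between 1.07 and 2.88.

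Other probe sets of the members gave the same direction on water. For C1qb 2 further probe sets rose by 1.49 ± 0.19 and 0.95 ± 0.17 (limma adjusted p = 0.00624 and 0.0175 over all probe sets). Both have names ending in _x_at, which marks probes that may also bind other transcripts. The second probe set of Marco rose by 1.62 ± 0.30 (limma adjusted p = 0.0179). For Csf1r the 3 probe sets disagreed in size, at 1.07 ± 0.25, 0.87 ± 0.17 and 0.33 ± 0.15, and the last did not pass (limma adjusted p = 0.187). Its levels were 7.06 and 6.84 in Irs2-/- islets on tungstate, 7.06 and 7.32 in Irs2-/- islets on water, 6.96 and 7.14 in WT islets on tungstate, and 6.94 and 6.78 in WT islets on water, so its groups overlapped. For tungstate in Irs2-/- islets none of these further probe sets passed limma's test over all probe sets. In that fit the main probe sets of C1qb and Tyrobp, which had passed in the fit of 1 probe set per gene, missed the threshold too (limma adjusted p = 0.0684 and 0.0614). The second probe set of Marco differed by -1.37 ± 0.30 (limma adjusted p = 0.161), against -2.30 for the first. The further ones of C1qb differed by -1.09 ± 0.19 and -0.61 ± 0.17 (limma adjusted p = 0.115 and 0.238), and those of Csf1r by -0.66 ± 0.17 and -0.24 ± 0.15 (limma adjusted p = 0.202 and 0.544). Between the genotypes under tungstate the second probe set of Marco differed by 0.14 ± 0.30. The further ones of Csf1r differed by 0.36 ± 0.17 and -0.10 ± 0.15, so the last had the opposite sign to the main one (0.35). Its sign was opposite for tungstate in WT islets as well (0.19 ± 0.15, against -0.13). None of these passed limma's test over all probe sets. Aif1 has 1 probe set, named _s_at, which may be shared by more than 1 transcript.

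Within the untreated Irs2-/- group the members did not rank the arrays alike. Replicate 1 was higher for 3 of them, Marco (by 0.73), Aif1 (0.19) and Cd68 (0.13). Replicate 2 was higher for the other 7, by 0.83 for Csf1r and for Mrc1, 0.46 for C1qb, 0.42 for Tyrobp and 0.29 for C1qc. Over the 8 arrays the lowest of the 45 pairwise correlations was that of Marco with Mrc1 (Pearson r = 0.81), with a median of 0.93. These values share the step between the groups and describe these arrays only.

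Genes of other roles in macrophages were taken from lists written by hand. Of 18 tested genes of the macrophage lineage, 13 rose in Irs2-/- islets on water and 1 fell, with a median of 1.16 (all tested genes -0.011). They included Mpeg1, the pore-forming perforin-2 of phagocytes (1.45 ± 0.12, limma adjusted p = 0.00103), and the NADPH oxidase subunit genes Cyba (2.39 ± 0.38) and Cybb (1.48 ± 0.25). The 1 that fell was the GM-CSF receptor gene Csf2ra (-0.70 ± 0.18, limma adjusted p = 0.0345), named after its value was seen. Under tungstate in Irs2-/- islets 1 of the 18, Mpeg1, fell (by 1.27 ± 0.12, limma adjusted p = 0.00777). The list median there was -0.90.

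Of 17 tested genes of the rest of the complement system 5 rose in Irs2-/- islets on water and 0 fell. Cfb, factor B of the alternative pathway, rose by 1.73 ± 0.18 (limma adjusted p = 0.00215) and Itgb2, the beta chain of complement receptor 3, by 2.42 ± 0.36 (limma adjusted p = 0.00694). The others were Cr1l (0.71 ± 0.12), which protects cells from complement in mice, C1qbp (0.56 ± 0.14) and, named after its value was seen, Clu (0.74 ± 0.19). Under tungstate in Irs2-/- islets Cfb alone fell (by 1.47 ± 0.18, limma adjusted p = 0.0203). The list median was 0.56 on water and -0.34 for tungstate, both nearer to 0 than those of the members.

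A list of Fc receptors, other cell-surface receptors, adaptors and signalling proteins gave 5 of 18 tested genes higher and 1 lower on water, with a median of 0.54. Fcer1g, the common gamma chain of Fc receptors, rose by 0.89 ± 0.12, Fcgr3 by 1.52 ± 0.22 and Clec7a, the beta-glucan receptor dectin-1, by 1.97 ± 0.24 (limma adjusted p = 0.00519, 0.00586 and 0.00333). Fcgr2b, the inhibitory Fc receptor, rose by 0.86 ± 0.15, and Syk, named after its value was seen like Sirpa, by 1.89 ± 0.50. Sirpa, which receives the signal of CD47, fell by 0.46 ± 0.11 (limma adjusted p = 0.0342). Under tungstate in Irs2-/- islets Fcer1g fell by 0.94 ± 0.12 and Clec7a by 1.59 ± 0.24 (limma adjusted p = 0.0281 and 0.0430), 2 of the 18.

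Of 21 tested lysosome genes 7 rose on water and 0 fell, with a median of 0.34. They included the protease genes Lgmn (1.93 ± 0.21), Ctsc (1.86 ± 0.23) and Ctsz (0.94 ± 0.14) and the acid lipase gene Lipa (0.86 ± 0.11). Under tungstate in Irs2-/- islets Lgmn fell by 1.36 ± 0.21 (limma adjusted p = 0.0439), 1 of the 21. Beside Marco and Mrc1, 5 of 18 tested scavenger and efferocytosis genes rose on water and 1 fell, among them Mfge8, which bridges dying cells to phagocytes (2.13 ± 0.33), Scarb1 (1.04 ± 0.19), Folr2, a marker of resident macrophages (0.69 ± 0.13), Pros1 (0.75 ± 0.18) and Cd36 (1.28 ± 0.31). The 1 that fell was Itgav (-0.72 ± 0.20). Cd36 and Itgav were named after their values were seen, and 0 of these 18 passed limma's test for tungstate in Irs2-/- islets.

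Some genes from the lists for both kinds of macrophage activation rose on water. Which cells of the islets these values came from was not tested. Of 9 tested genes of alternative activation 4 rose, namely Arg1 (1.66 ± 0.32), Il4ra (0.72 ± 0.13), Igf1 (1.19 ± 0.27) and Tgm2 (1.63 ± 0.46). Of 14 tested genes of inflammatory activation 4 rose as well, namely Casp1 (1.64 ± 0.35), Cd86 (1.15 ± 0.22), Cd40 (0.53 ± 0.13) and Irf8 (1.80 ± 0.47), while Il1b did not pass (0.62 ± 0.22, limma adjusted p = 0.0893). For MHC class II presentation 5 of 8 rose, including H2-Ab1 (1.59 ± 0.35) and H2-Eb1 (1.47 ± 0.29), with a median of 1.53. In none of these 3 lists did a member pass limma's test for tungstate in Irs2-/- islets, where their medians were -0.45, -0.32 and -1.57. Between the genotypes under tungstate, Igf1 (1.32 ± 0.27) and Tgm2 (1.78 ± 0.46) differed by no less than on water. Arg1 (0.96 ± 0.32) and Il4ra (0.39 ± 0.13) differed by less, and none of these 4 passed limma's test there.

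Markers of other cells moved on the same arrays, and their part in the results was not tested. Of 14 tested pan-leukocyte genes 8 rose on water, with a median of 2.21, and 5 of 9 markers of T and NK cells did, with a median of 1.21. Their mean level was 6.32 and 6.84 in Irs2-/- islets on tungstate, 8.81 and 7.87 in Irs2-/- islets on water, 6.37 and 5.65 in WT islets on tungstate, and 7.10 and 5.67 in WT islets on water for the pan-leukocyte list. The T and NK list read 5.69 and 5.83 in Irs2-/- islets on tungstate, 7.30 and 6.61 in Irs2-/- islets on water, 5.41 and 5.38 in WT islets on tungstate, and 5.83 and 5.33 in WT islets on water. With tungstate in Irs2-/- islets 1 gene of each list fell, Selplg, an adhesion ligand of leukocytes, and Nkg7, a gene of cytotoxic granules, and the list medians were -2.02 and -0.85. Among 7 tested B and plasma cell markers 1 rose, Mzb1 (2.85 ± 0.57), and 6 of the 7 differences on water were positive. The list medians were 2.38 on water and -1.97 for tungstate in Irs2-/- islets, where none passed limma's test. The list mean ran between 6.14 and 7.06 in Irs2-/- islets on tungstate, 7.77 and 8.59 in Irs2-/- islets on water, 5.17 and 6.53 in WT islets on tungstate and 5.26 and 7.13 in WT islets on water. None of 6 tested neutrophil and mast cell markers passed limma's test in either comparison, and 1 of 5 dendritic cell markers, Batf3, rose (0.84 ± 0.18).

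After each member was centred on its own mean, the mean of the 10 was -0.17 and -0.19 in Irs2-/- islets on tungstate, 1.04 and 1.23 in Irs2-/- islets on water, -0.48 and -0.54 in WT islets on tungstate, and -0.40 and -0.49 in WT islets on water. No group overlapped with another on this mean except the WT groups with each other. On this mean the replicates of each group lay closer together than those of the pan-leukocyte list did. Gaps of single members in opposite directions partly cancel in it. In WT islets on tungstate the replicates of the acinar and of the T and NK lists lay closer still. Those of the endothelial list did so in both groups on water (-0.25 and -0.25 in WT islets, 0.25 and 0.29 in Irs2-/- islets).

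**Figure D5:**
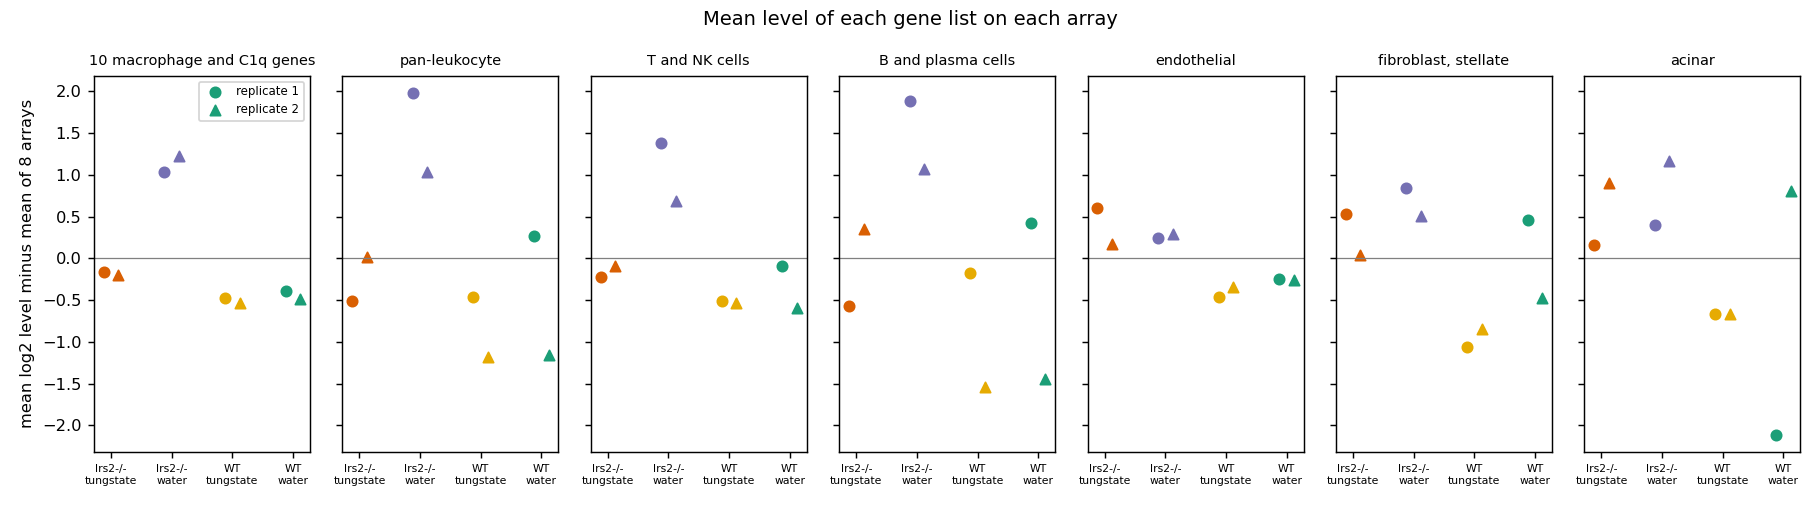
Mean log2 level of the 10 macrophage and C1q genes and of 6 marker lists on each array, minus the mean of the 8 arrays, with replicate 1 as circles and replicate 2 as triangles. The mean of the members holds its replicates close together, though single members do not, while the B cell and acinar lists spread widely within WT islets on water. In both groups on water the replicates of the endothelial list lie closer than those of the members.

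Markers of tissue around the endocrine cells also differed between the groups, and their part in the results was not tested. The acinar list read 11.27 and 12.01 in Irs2-/- islets on tungstate, 11.51 and 12.28 in Irs2-/- islets on water, 10.44 and 10.45 in WT islets on tungstate, and 9.0 and 11.91 in WT islets on water, with 1 of 16 markers past the test on water (Rbpjl, 0.62 ± 0.16). All 16 acinar differences were positive on water, with a median of 1.49, and all 16 were negative for tungstate in Irs2-/- islets, with a median of -0.23. Of 12 fibroblast and stellate markers 1 rose on water (Pdgfrb, 0.90 ± 0.24) and 1 fell (Col6a3, -0.90 ± 0.23). Their differences were positive for 11 of 12 on water (median 0.75) and for 1 of 12 with tungstate in Irs2-/- islets (median -0.46). Of 13 endothelial markers 3 were higher in Irs2-/- islets under tungstate and 3 on water, with medians of 0.66 and 0.40. For tungstate in Irs2-/- islets 0 of the 13 endothelial, 0 of 12 fibroblast and stellate and 0 of 16 acinar markers passed limma's test. Of 10 endocrine markers 5 fell on water, such as Slc2a2 (-2.30 ± 0.36), and 0 passed for tungstate in Irs2-/- islets.

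The genes whose levels followed the members most closely over the 8 arrays were found by Pearson's r with the centred mean of the 10. Mpeg1 came first (r = 0.997), followed by Mfap3l, Gstm5, Lipa, Nmb, Imp4, Plaur, Serpina1b, Card19 and Fxyd5, whose r lay between 0.984 and 0.992. Of these 10, Mpeg1 and Lipa were in the macrophage lists, Plaur encodes the urokinase receptor and Nmb the peptide neuromedin B. Mpeg1 read 8.20 and 8.12 in Irs2-/- islets on tungstate, 9.35 and 9.50 in Irs2-/- islets on water, 7.84 and 7.90 in WT islets on tungstate, and 8.07 and 7.88 in WT islets on water. An r above 0.9 was reached by 517 of the 13360 tested genes outside the members (3.87%), all of them measured on the same 8 arrays, so the likeness is shared by many genes.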

How the data were processed

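RNA of 8 islet samples was hybridised to Affymetrix mouse arrays. The deposited values are log2 intensities that the authors made by RMA (background correction, quantile normalization and summary per probe set) with affy in R 2.7.0, per the submitters' processing notes, and they were used as deposited. Of 45037 probe sets, 34945 named 1 gene, 932 several and 9160 none, by GEO's platform annotation. A gene was represented by the probe set with its highest mean, and of 18193 genes the 4824 with a mean under the 40th percentile of all probe sets (log2 5.27) were left out. The other 13369 were fitted with limma 3.58.1 (R 4.3.3) on the means of 4 groups, moderated by eBayes, with Benjamini-Hochberg adjustment over all of them for each of 6 contrasts and a threshold of 0.05. Data were simulated with 200 changed genes for the genotype difference on water only. There 74.3% of log2 changes of 1 and 95.6% of changes of 2 were recovered, and 4.86% of the calls were false. These rates do not describe the other comparisons. Arrays give no read depth: their number, 2 per group, limits the precision. The members and lists were chosen with earlier results of these data known. Of each list the text names from the up to 4 genes with the smallest p for the genotype difference on water and the up to 2 for tungstate in Irs2-/- islets, with exceptions marked, and beside them the 10 genes most like the members by Pearson's r. Alternatives covered the filter, moderation, normalization, probe set choice, covariates and leaving out each array.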

Additional observations from a re-analysis of the deposited data

How the results depend on the processing

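The count of members higher in Irs2-/- islets on water was 9 and lay between 7 (a filter at the 60th percentile, where fewer members were tested) and 10 (no filter). Leaving out 1 array at a time gave 8 to 9. The count lower with tungstate in Irs2-/- islets was 7. It was 1 on the arrays compared alone, 4 with the second probe set of a member among all probe sets, 3 without replicate 1 of both untreated groups, and 3 to 7 without 1 array at a time, with 3 without either WT array on tungstate or treated Irs2-/- replicate 2. The 0 members of the other comparisons stayed at 0 in all settings run, except that an adjusted p under 0.1 gave 1 interaction (Aif1). Whether equal replicate numbers pair the samples is not settled: the correlations of replicate differences between groups lay between -0.066 and 0.42, positive for 5 of 6 pairs of groups. With the replicate block 9 members were higher on water and 7 lower with tungstate, and it changed no member's call.

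In the settings run, signs turned only for differences near 0. No setting used the third probe set of Csf1r alone, whose signs are given above. For treated Irs2-/- against untreated WT islets Ctss was 0.012 with quantile normalization, 0.0039 with the acinar covariate, 0.053 without replicate 1 of both untreated groups, and -0.17 to 0.053 without 1 array. For tungstate in WT islets C1qc was 0.0040 with quantile normalization. C1qb was -0.092 with the mean of its probe sets, -0.20 with its second one and -0.024 without replicate 1 of both untreated groups, and Marco was 0.020 with the mean and 0.11 with the second. Tyrobp was 0.028 and Csf1r 0.011 without replicate 1 of both untreated groups. Without 1 array at a time, tungstate in WT islets gave -0.024 to 0.11 for C1qb, -0.25 to 0.028 for Tyrobp, -0.27 to 0.011 for Csf1r, -0.28 to 0.15 for Marco and -0.33 to 0.042 for Aif1, and the genotype difference under tungstate -0.033 to 0.21 for C1qa and -0.057 to 0.18 for Ctss. The cause was not tested.

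Counts over all genes moved more. On water 2245 genes passed, with 367 without replicate 1 of both untreated groups and 3511 at an adjusted p under 0.1. For tungstate in Irs2-/- islets 66 passed, with 16 without either WT array on tungstate and 265 without untreated Irs2-/- replicate 2. Under tungstate 137 passed between genotypes, with 3 and 679 at the extremes. Treated Irs2-/- against untreated WT islets gave 47, with 4 and 585. Tungstate in WT islets gave 0, with up to 9, and the interaction 3, with 0 to 13.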

Other observations

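The 4 genes that follow are in no list and were named after their values were seen, so they stand for no theme. Fcna encodes ficolin A, a recognition molecule of the lectin pathway of complement. It read 5.94 and 5.95 in Irs2-/- islets on tungstate, 7.73 and 7.39 in Irs2-/- islets on water, 5.58 and 5.89 in WT islets on tungstate, and 5.72 and 5.55 in WT islets on water. Both untreated Irs2-/- arrays lay above the rest. It was 3.80-fold higher in Irs2-/- than in WT islets on water (limma adjusted p = 0.00103) and fell by 1.62 ± 0.16 with tungstate in Irs2-/- islets (limma adjusted p = 0.00905). The chemokine gene Ccl8 rose by 2.43 ± 0.32 in Irs2-/- islets on water and fell by 2.35 ± 0.32 with tungstate (limma adjusted p = 0.00422 and 0.0328). Pld4, an endolysosomal exonuclease gene, rose by 1.33 ± 0.17 and fell by 1.23 ± 0.17 in the same comparisons (limma adjusted p = 0.00399 and 0.0351).

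Pycard, which encodes the inflammasome adaptor ASC, had another order of groups. It read 6.88 and 7.09 in Irs2-/- islets on tungstate, 8.56 and 8.05 in Irs2-/- islets on water, 7.79 and 7.42 in WT islets on tungstate, and 7.70 and 7.62 in WT islets on water. Its treated Irs2-/- arrays lay below both WT groups. It fell by 1.32 ± 0.20 with tungstate in Irs2-/- islets (limma adjusted p = 0.0403), while the genotype difference on water did not pass (0.65 ± 0.20, limma adjusted p = 0.0586), nor did that under tungstate (-0.62 ± 0.20, limma adjusted p = 0.172).

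The 63 genes that fell with tungstate in Irs2-/- islets held 7 of the members, 7 genes of the other lists and 49 genes in no list. The 7 from the lists were Mpeg1, Cfb, Fcer1g, Clec7a, Lgmn, Selplg and Nkg7.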
